A study of Homo sapiens with 3 samples.

Results

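A set of 6 CC chemokine genes was described in C28/I2, human chondrocytes made immortal by viral large T antigen: CCL3 and CCL4, which encode the macrophage inflammatory proteins MIP-1 alpha and MIP-1 beta, their near-identical copies CCL3L1 and CCL4L1, CCL5, also called RANTES, and CCL20, also called MIP-3 alpha. They were taken by symbol from a deposited table of 19215 genes, and all 6 were found. The set was selected on the authors' fold changes between culture forms, known beforehand, so the fold changes of these 6 genes are a description and support no test. The samples are 3 cultures of cell aggregates, called spheroids, each exposed for 48 h to 0.5% DMSO, a solvent. Whether the 3 were grown separately is not labelled, and their spread may be a technical one. Monolayer cells enter only through the authors' fold changes, with no statement of their treatment in the sources used here. A single immortalised line stands behind every value.

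CC chemokines are small secreted proteins with adjacent cysteines near the amino terminus, and they guide white blood cells along a gradient bound to heparan sulfate. MIP-1 alpha, MIP-1 beta and RANTES draw monocytes, T cells and natural killer cells, and MIP-1 alpha and RANTES act in part through the receptor CCR1. CCL20 is the chemokine ligand of CCR6, which is found on Th17 cells, B cells and some dendritic cells. In cartilage these genes are known as targets of interleukin-1 and NF-kB signalling in chondrocytes of inflamed joints.

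Regulatory sequence is shown for CCL3 and CCL20, the 2 members that have an entry in the RefSeq promoter table (GRCh38.p14). They lie on different chromosomes. Both were higher in spheroids by the selection of the set, and shared control was not tested. CCL3L3, the copy of CCL3 in the table, is added to show how alike the copies are. CCL4, CCL5, CCL3L1 and CCL4L1 are named only. Each line gives the 250 bases before the gene start, 5′ to 3′ on the strand of the gene, and capitals mark matches to GGGNNNNCC, a loose form of the kappaB site bound by RelA and searched on both strands, and to TATAAA, the TATA box, on the gene strand. The windows are chr17:36090144-36090393 on the minus strand for CCL3, chr2:227813592-227813841 on the plus strand for CCL20 and chr17:36196759-36197008 on the minus strand for CCL3L3.
CCL3: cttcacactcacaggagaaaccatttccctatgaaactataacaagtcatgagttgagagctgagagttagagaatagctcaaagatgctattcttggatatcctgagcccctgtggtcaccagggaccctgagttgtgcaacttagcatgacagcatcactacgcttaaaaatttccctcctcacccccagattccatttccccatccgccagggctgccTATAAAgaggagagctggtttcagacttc
CCL20: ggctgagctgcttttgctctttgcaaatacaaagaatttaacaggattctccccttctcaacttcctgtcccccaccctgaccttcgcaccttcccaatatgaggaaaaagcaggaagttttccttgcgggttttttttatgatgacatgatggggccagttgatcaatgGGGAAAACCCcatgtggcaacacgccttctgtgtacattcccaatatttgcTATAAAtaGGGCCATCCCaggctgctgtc
CCL3L3: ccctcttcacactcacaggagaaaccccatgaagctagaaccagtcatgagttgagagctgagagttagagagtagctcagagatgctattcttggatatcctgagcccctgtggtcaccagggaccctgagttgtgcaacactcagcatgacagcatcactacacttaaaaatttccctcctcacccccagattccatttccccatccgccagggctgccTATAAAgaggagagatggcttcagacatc

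TATAAA began at position -29 relative to the gene start in all 3 windows. Of 35093 distinct windows of this length in the table, 10.7% held it on either strand, and 2.21% held it on the gene strand starting 35 to 20 bases before the start. GGGNNNNCC had no match in the CCL3 window, whereas in CCL20 it matched at 2 places, with overlapping matches on the 2 strands starting at -80 and -79 and at -21 and -20. None of these overlapped the TATA box, and 48.5% of all windows hold this motif. The C/EBP motif TTGCNNAA, found in 9.05% of windows, matched CCL3 at -116 and not CCL20, and the AP-1 motif TGANTCA, found in 6.57%, matched neither. The CCL3 and CCL3L3 windows were identical at 234 of 256 aligned positions (91.4%). The motif forms were chosen after the windows had been read, and the matches describe letters, not measured binding.

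The 3 spheroid libraries summed to between 571705 and 623496 FPKM (fragments scaled to transcript length and library total, a level per length), with 17207 to 17240 genes above 0. The read totals behind these values are unknown, so no counting interval is given. Markers of differentiated chondrocytes were mostly low. SOX9, the chondrocyte transcription factor, averaged 6.71 ± 0.0866 FPKM and the aggrecan gene ACAN 0.730 ± 0.0400 (SD, n = 3). COL2A1, encoding the main cartilage collagen, was listed at 0.03, 0.01 and 0.01 FPKM. CHI3L1, encoding a secreted glycoprotein of chondrocytes, reached 3175 ± 212 FPKM (SD, n = 3). Of the 12 chondrocyte markers, 3 were higher in spheroids than in monolayer and 2 lower by the authors' deposited table. Among all tested genes, 11.5% were higher and 9.34% lower. The higher markers SOX5 and COL9A1 and the lower markers ACAN and HAPLN1 all averaged under 1 FPKM, unlike CHI3L1, which was higher.

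All 6 chemokine genes were expressed in every spheroid library, at mean levels from 11.5 to 58.4 FPKM. CCL4 was the most abundant, at 46.66, 62.28 and 66.13 FPKM in replicates 1, 2 and 3, a mean of 58.4 ± 10.3 (SD, n = 3). It lay above 92.2% of the genes in the table by mean level. CCL4L1, its near-identical copy, was listed at 33.71, 48.18 and 50.60 FPKM (44.2 ± 9.13, SD, n = 3), and its range overlapped that of CCL4.

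CCL20, the CCR6 ligand, was listed at 18.87, 24.09 and 28.59 FPKM, a mean of 23.9 ± 4.86 (SD, n = 3). All 3 of its values lay below the lowest value of CCL4L1. CCL3 was listed at 14.76, 22.50 and 20.22 FPKM (19.2 ± 3.98, SD, n = 3), overlapping CCL20. CCL5, a broader attractant of T cells, was listed at 10.06, 13.68 and 15.24 FPKM (12.99 ± 2.66, SD, n = 3). CCL3L1, the copy of CCL3, was lowest at 9.44, 11.89 and 13.12 FPKM (11.5 ± 1.87, SD, n = 3), and lay above 69.1% of the genes in the table.

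The order of levels was the same in each of the 3 libraries, from CCL4 through CCL4L1, CCL20, CCL3 and CCL5 to CCL3L1. Of the 5 neighbouring pairs in this order, only CCL4L1 and CCL20 had ranges that did not overlap, with CCL4L1 1.77 to 2.0 times as high within a library. CCL5 stood 1.07 to 1.16 times above CCL3L1 and CCL20 1.07 to 1.41 times above CCL3 within a library, the smallest separations of neighbours by their lower limit.

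**Figure D1:**
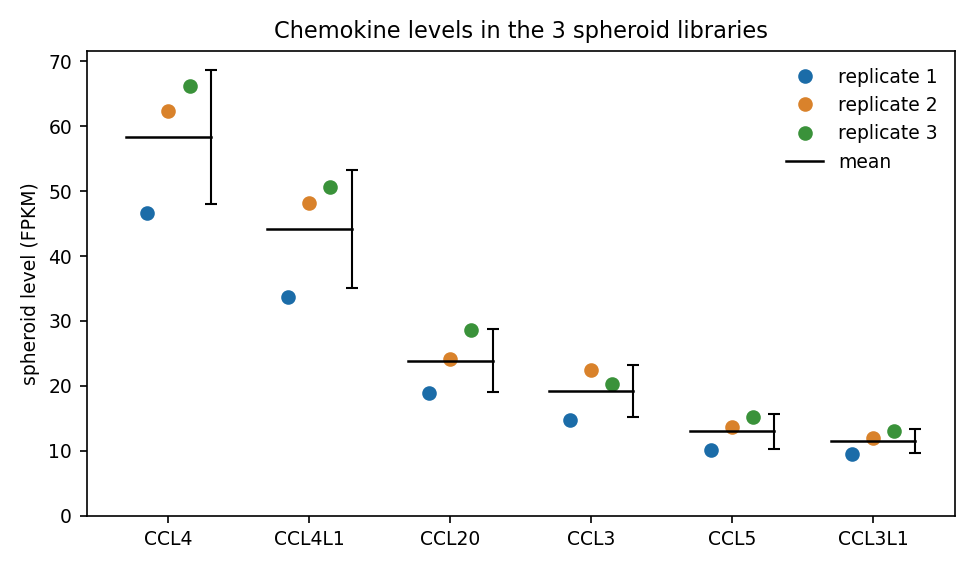
FPKM of the 6 chemokine genes (y axis, linear from 0) in the 3 spheroid libraries, with each library as a point, the mean as a horizontal line and the SD (n = 3) as a bar. CCL4 leads with a mean of 58.4 FPKM and CCL3L1 is lowest with 11.5, and replicate 1 is the lowest point of every gene.

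Replicate 1 was the lowest library for all 6 genes, and replicate 3 was the highest for 5 of them, with replicate 2 highest for CCL3. Relative to the mean of replicates 2 and 3, replicate 1 was lower by between 24.5% for CCL3L1 and 31.7% for CCL4L1. Across the 12410 genes that averaged 1 FPKM or more, replicate 1 was lowest for 34.1%, and the median ratio of replicate 1 to the mean of the other libraries was 1.00. Between 1.604% and 3.71% of those genes had a lower ratio than the 6 chemokines. The coefficients of variation of the 6 genes ran from 16.3% to 20.8%, against a median of 8.37% over the 12410 genes.

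The same direction was present in the rest of the family, since 6 of the 9 other CC chemokines at 1 FPKM or more were lowest in replicate 1. On the log2(FPKM + 1) scale, replicate 1 deviated from the libraries' mean by a median of -0.18 over those 9 genes and 0.01 over all 12410. Over the 15 gene lists, this median ran from -0.21 for all CC chemokines to 0.05 for the 2 receptors of the members at 1 FPKM or more. For AP-1 and C/EBP factors the median was -0.16, for interferon regulatory factors -0.12 and for chemokine-processing proteases -0.10. It was -0.06 for NF-kB pathway genes and 0.03 for markers of immune cells. The part of culture, cell number or library preparation in this difference was not tested. In bulk RNA, fewer cells making a transcript and less of it per cell cannot be told apart.

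**Figure D2:**
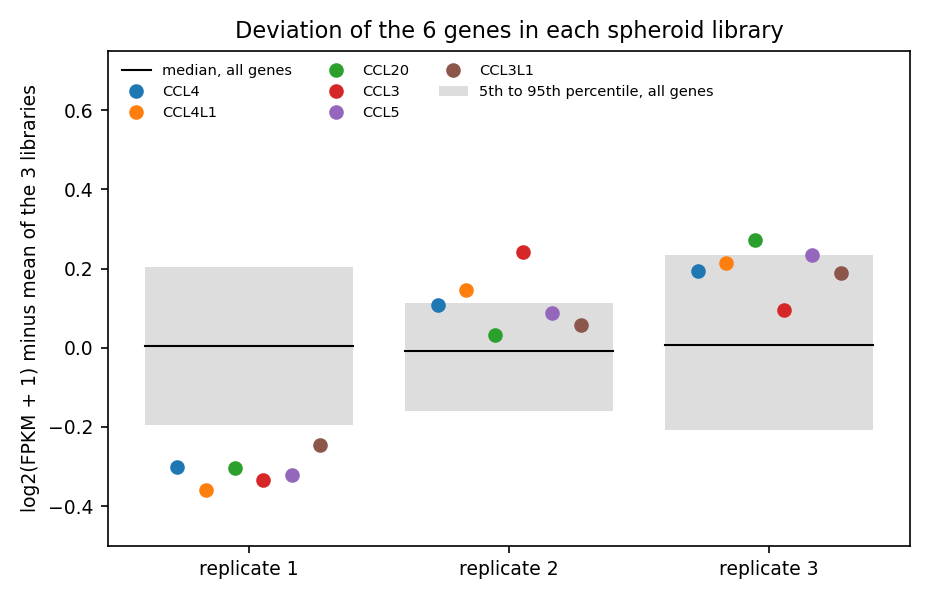
The y axis is log2(FPKM + 1) minus its mean over the 3 libraries for the 6 genes (coloured points) in each spheroid library. Grey bars span the 5th to 95th percentile of the 12410 genes averaging 1 FPKM or more and black lines their median. All 6 genes lie below the grey bar in replicate 1, between -0.36 and -0.25.

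The copies set a limit on single values. CCL3 and CCL3L1, and likewise CCL4 and CCL4L1, encode nearly the same protein from nearly the same transcript, and reads shared by copies are divided by the quantification software. CCL3L1 was listed at 0.640, 0.528 and 0.649 times CCL3 in replicates 1, 2 and 3, and CCL4L1 at 0.722, 0.774 and 0.765 times CCL4. Other copies carried almost nothing: CCL3L3 was listed at 0 in all 3 libraries and CCL4L2 at 0.16, 0.43 and 0.74 FPKM. The assignment between a gene and its copies is therefore uncertain, while their sums do not depend on how reads are split among copies of like length.

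The sum of CCL3 and CCL3L1 was 24.20, 34.39 and 33.34 FPKM (30.6 ± 5.60, SD, n = 3). For CCL4 and CCL4L1 it was 80.37, 110.46 and 116.73 FPKM (102.5 ± 19.4, SD, n = 3). Both sums were again lowest in replicate 1. With copies added, MIP-1 beta transcripts exceeded MIP-1 alpha transcripts in each library, with ranges that did not overlap. No member shared all 3 of its library values with another gene.

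The authors compared spheroids with cells grown flat in monolayer. All 6 members were, by the authors' deposited table, higher in spheroids at an adjusted p under 0.05 with a log2 fold change of at least 1, and 11.5% of 18467 tested genes were higher by the same rule. These genes were chosen with that contrast known, so nothing is read from the count. Members with a log2 fold change of at least 4 numbered 5 by the authors' deposited table, where 1.52% of tested genes reached that size. The same selection lies behind this count, and nothing is read from it either.

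The size of the difference varied widely among the 6 genes. CCL5 had the smallest log2 fold change by the authors' deposited table, at 2.30, which is 4.91 times the level in monolayer. CCL3 followed at 4.81, which is 28.1 times, CCL20 at 6.27, which is 77.4 times, and CCL3L1 at 6.31, which is 79.5 times, all by the authors' deposited table. CCL4 stood at 7.03 by the authors' deposited table, 130.6 times the monolayer level. The value for CCL4L1 was 10.80 by the authors' deposited table, a size that depends on how reads were split between copies. Beside a spheroid mean of 44.2 FPKM, it implies a monolayer level near 0, where a ratio is imprecise. Low monolayer levels would likewise enlarge the other ratios, and those levels were not analysed here. By the authors' deposited table, CCL3L1 stood at 6.31 against 4.81 for its parent gene CCL3, and CCL4L1 at 10.80 against 7.03 for CCL4. The copy CCL4L2 stood lower than CCL4, at 1.37 by the authors' deposited table and not past the threshold. CCL3L3 had no fold change. The differences between copies and parent genes depend on how reads were split and were not tested.

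Among the other 22 CC chemokine genes, 18 had a fold change, of which 7 were higher in spheroids, 11 did not pass the threshold and none was lower by the authors' deposited table (11.5% of all tested genes were higher and 9.34% lower). Their median log2 fold change was 1.55 by the authors' deposited table, against 0.04 over all tested genes. CCL8, a monocyte attractant, stood at 7.04, CCL18, a chemokine of alternatively activated macrophages, at 6.24 and CCL1, a ligand of CCR8, at 5.33 by the authors' deposited table. CCL7, another monocyte attractant, dominated the family by level at 615 ± 63.2 FPKM (SD, n = 3). Of the summed FPKM of all CC chemokines, the 6 members held 14.3%, 16.0% and 17.1% in replicates 1, 2 and 3, and CCL7 held 57.0% to 58.2%. Of 19 tested chemokines of the CXC, C and CX3C classes, 8 were higher and 2 lower by the authors' deposited table, led by CXCL10, a ligand of CXCR3, at 7.28. The eosinophil attractant CCL26, at 18.39, 17.01 and 25.33 FPKM, had a level like that of CCL3 and CCL20 with a log2 fold change of 0.34 by the authors' deposited table, not past the threshold.

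**Figure D3:**
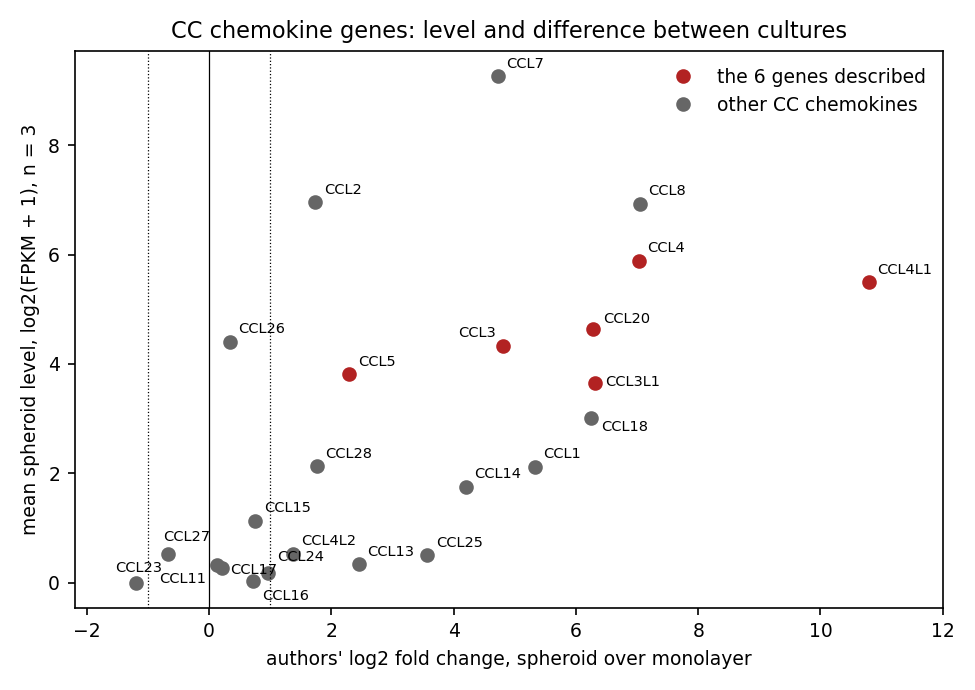
Mean spheroid level as log2(FPKM + 1) over 3 libraries (y axis) against the authors' log2 fold change of spheroid over monolayer (x axis) for the 24 CC chemokine genes with a fold change, with dotted lines at a fold change of -1 and 1. The 6 genes described (red) spread from 2.30 for CCL5 to 10.80 for CCL4L1, and CCL7 has the highest level of the family.

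The genes beside the members in chromosome order differed in their behaviour (RefSeq order, 3 protein-coding genes of the table on either side of CCL3, CCL4, CCL5 and CCL20). On chromosome 17, CCL18 next to CCL3 averaged 7.01 FPKM and was called higher, whereas CCL23 was listed at 0 in all 3 libraries and CCL15 at 2.17, 0.80 and 0.61 FPKM without passing the threshold. Around CCL5, TAF15, an RNA-binding protein gene, averaged 29.3 FPKM with a log2 fold change of -0.72 by the authors' deposited table, not past the threshold, and RDM1, a gene of DNA recombination and repair, was lower at -2.495 by the authors' deposited table. None of the 6 neighbours of CCL20 on chromosome 2 passed the threshold. The nearest neighbours of CCL20 with a level above 1 FPKM were AGFG1, at 14.8 FPKM, and PID1, at 4.53 FPKM.

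Of 7 genes for receptors of these ligands, 5 averaged under 1 FPKM in the spheroids. By the authors' deposited table, 1 was higher, 6 did not pass the threshold and none was lower, with a median log2 fold change of -0.21. Among all tested genes, 11.5% were higher and 9.34% lower. CCR1, a receptor of MIP-1 alpha and RANTES, was at 24.26, 25.56 and 25.74 FPKM, with a log2 fold change of 1.39 by the authors' deposited table (DESeq2 adjusted p = 4.28e-34). Its level varied little between libraries.

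CCR6, the receptor of CCL20, was listed at 0.08, 0.04 and 0.09 FPKM and was not past the threshold, at -1.54 by the authors' deposited table. CCR3, a receptor of RANTES on eosinophils, was at 3.41, 2.10 and 3.58 FPKM. CCR4, ACKR1, GPR75 and the scavenging receptor ACKR2 were all below 1 FPKM in every library. Among 13 tested receptors of other chemokines, 5 were higher and none lower by the authors' deposited table, led by CXCR4, the receptor of CXCL12, at 5.02. For all tested genes the shares were 11.5% higher and 9.34% lower.

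A list of cytokines known to induce these chemokines, their receptors and antagonist, Toll-like receptors and signalling adaptors had 12 of 23 tested genes higher and none lower, with a median log2 fold change of 1.51 by the authors' deposited table. Over all tested genes, 11.5% were higher and 9.34% lower. The inducing cytokines among the 12 were IL1B and TNF alone. The others were the receptor genes IL1R1, TNFRSF1B, IFNGR1 and IFNGR2, the antagonist gene IL1RN, the Toll-like receptor genes TLR2, TLR3 and TLR4, the adaptor gene MYD88 and the kinase gene IRAK2. IL1B stood at 5.81, the bacterial lipoprotein receptor gene TLR2 at 5.51, TNF at 4.35 and IL1RN, encoding the interleukin-1 receptor antagonist, at 4.07 by the authors' deposited table. IL1B was at 32.46, 43.32 and 41.55 FPKM, lowest in replicate 1 like the 6 chemokines, while TNF was at 3.54, 4.35 and 2.80 FPKM, lowest in replicate 3. The TNF receptor genes TNFRSF1A and TNFRSF1B had the highest levels of the list, at 156 ± 4.81 and 96.1 ± 7.40 FPKM (SD, n = 3). IL17A and IL17F, known inducers of CCL20, were at or near 0, with no value above 0.11 FPKM, and IFNG was listed at 0 in all 3 libraries.

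By the authors' deposited table, 11.5% of all tested genes were higher and 9.34% lower. NF-kB pathway genes were higher for 14 of 24 and lower for 2, with a median log2 fold change of 1.28 by the authors' deposited table. Several of those that were higher restrain the pathway: TNIP3, which binds the inhibitor A20, stood at 3.79, NFKBIA, encoding I-kappa-B alpha, at 2.83 and TNFAIP3, encoding A20 itself, at 2.72 by the authors' deposited table. The subunit genes called higher were RELB at 2.63, RELA at 1.63, NFKB1 at 1.53 and NFKB2 at 1.38 by the authors' deposited table. REL, another subunit gene, was not past the threshold, at -0.62 by the authors' deposited table. TRAF1, an adaptor of TNF receptors, stood at 3.53 by the authors' deposited table. Those that were lower, at -1.59 and -1.13 by the authors' deposited table, were MAP3K14, the kinase of the non-canonical branch, and IKBKG, the scaffold of the I-kappa-B kinase. NFKBIA was at 263.87, 308.21 and 349.27 FPKM, lowest in replicate 1.

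Among interferon regulatory factors, known activators of CCL5, 3 of 9 were higher and none lower by the authors' deposited table: IRF1 at 2.10, IRF5 at 1.80 and IRF2 at 1.43. IRF9 and IRF3 had the highest levels, at 93.7 ± 7.44 and 51.2 ± 2.83 FPKM (SD, n = 3), and were not past the threshold. Of 16 AP-1 and C/EBP factors, 8 were higher and 1 lower by the authors' deposited table. Beside the counts of both lists, 11.5% of all tested genes were higher and 9.34% lower. ATF3, a stress-responsive factor, stood at 3.58, MAF at 2.53, CEBPD at 2.504 and JUNB at 2.48, with FOSL1 lower at -1.04, by the authors' deposited table.

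A mixed list of genes of AU-rich element binding or mRNA decay had 2 of 15 higher and none lower. Its median log2 fold change was 0.01 by the authors' deposited table. The share called higher is near the 11.5% of all tested genes. ZC3H12A, encoding the endonuclease Regnase-1, stood at 2.19 and N4BP1, another RNA-degrading enzyme gene, at 1.18 by the authors' deposited table. ZFP36, encoding tristetraprolin, was at 19.53, 20.26 and 25.12 FPKM with a log2 fold change of -0.02 by the authors' deposited table, not past the threshold; it was chosen after its values were seen.

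Proteases listed as chemokine-processing, cathepsins among them, were higher for 15 of 19 and lower for none. Their median log2 fold change was 1.75 by the authors' deposited table. The matrix metalloproteinase genes MMP13, MMP9 and MMP8 led them at 5.50, 5.47 and 4.98 by the authors' deposited table. DPP4, the dipeptidyl peptidase that cuts the amino terminus of RANTES, averaged 1.07 FPKM. Its log2 fold change was 1.14 by the authors' deposited table, and it was chosen after its values were seen. Of 16 genes for heparan sulfate proteoglycans and enzymes that build their chains, 5 were higher and 2 lower by the authors' deposited table. The shares over all tested genes were 11.5% higher and 9.34% lower. GPC6, a glypican, stood at 3.23 and SDC4, a syndecan, at 1.86, with HSPG2, encoding perlecan, at -1.28 and SDC1, another syndecan, at -1.13 by the authors' deposited table.

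**Figure D4:**
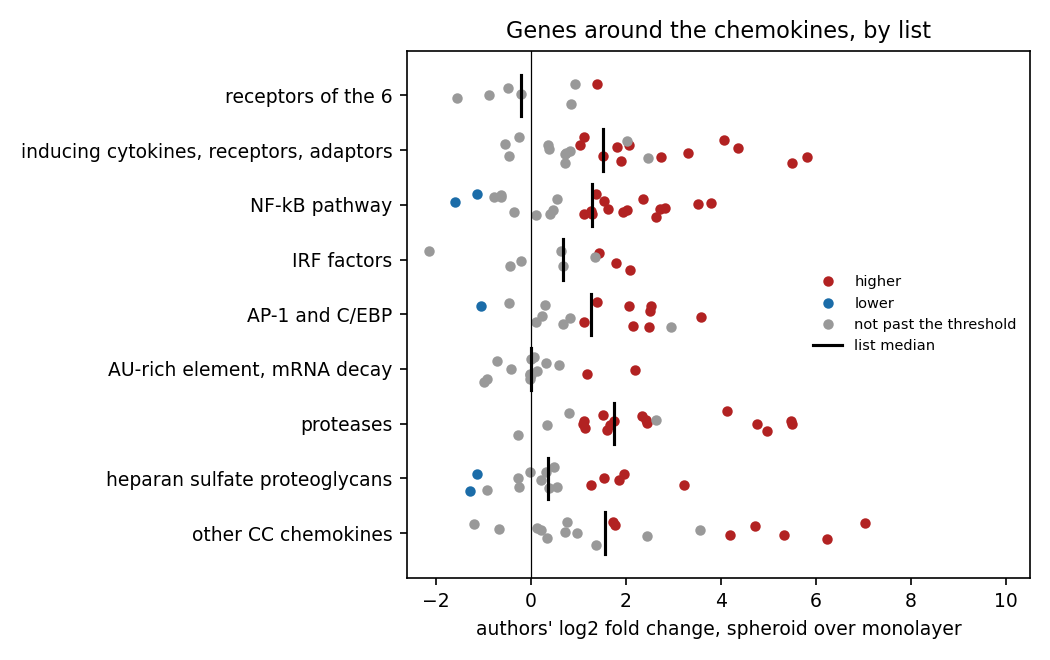
The authors' log2 fold change of spheroid over monolayer (x axis) for genes of 9 lists (rows), with red points higher, blue points lower and grey points not past the threshold, and a black line at each list's median. The 7 receptors of the 6 chemokines have a median of -0.21 and genes of AU-rich element binding or mRNA decay 0.01. The median is 1.75 for proteases and 1.51 for inducing cytokines with receptors and adaptors.

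Because blood cells are the best known source of these chemokines, markers of immune cells were set beside them. Of 24 markers, 6 were higher, 17 did not pass the threshold and 1 was lower by the authors' deposited table, and their summed level was 859.7 to 962.6 FPKM. CD68, a lysosomal glycoprotein gene, at 660 to 742 FPKM and LCP1, encoding an actin-bundling protein, at 144 to 192 FPKM made up most of this sum. The markers that were higher, by the authors' deposited table, were CD53, a leukocyte tetraspanin gene, at 2.90, CD163, a macrophage scavenger receptor gene, at 2.58, CD68 at 2.16, the T cell receptor complex genes CD3E at 2.14 and CD3D at 1.88, and ITGAM, a myeloid integrin gene, at 1.86. Their spheroid levels ranged from 0.300 FPKM for CD163 and 0.350 for ITGAM through 1.09 for CD3E, 3.18 for CD53 and 32.6 for CD3D to 702.4 for CD68. CORO1A, an actin regulator gene of leukocytes, was lower at -3.27 by the authors' deposited table. The part of immune cells in the levels of the 6 chemokines was not tested. PTPRC, encoding the common leukocyte antigen CD45, was listed at 0, 0.01 and 0.06 FPKM, and TYROBP, a signalling adaptor of myeloid and natural killer cells, at 0 in all 3 libraries. The monocyte receptor gene CD14 was at 0.23, 0.17 and 0.48 FPKM. Of the 24 markers, 7 averaged 1 FPKM or more. These included CSF1R at 6.27 FPKM and FCER1G at 3.05 FPKM, neither past the threshold. Endothelial markers summed to 7.69 to 8.71 FPKM, of which TIE1 made up most, and 2 of 8 were higher by the authors' deposited table. Epithelial markers summed to 66.7 to 71.3 FPKM, mostly from KRT18 and KRT8, and 1 of 8 was higher by the authors' deposited table. The higher endothelial genes PECAM1 and KDR and the higher epithelial gene KRT5 all averaged under 1 FPKM. For comparison with the counts of the immune, endothelial and epithelial lists, 11.5% of all tested genes were higher and 9.34% lower.

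Genes outside the 6 with the most similar values were found by Euclidean distance over 4 values, log2(FPKM + 1) in the 3 spheroid libraries and the authors' log2 fold change. Nearest to CCL4 were MMP10, a stromelysin gene, at a distance of 0.53, the chemokine gene CXCL11 at 0.74 and LCN2, encoding lipocalin-2, at 0.80. CCL4L1 had no close neighbour by this distance, which includes its log2 fold change, a value that depends on how reads were split. Its nearest were S100A8 and S100A9, calgranulin genes, at 1.81 and 2.38 and TNFAIP6, a hyaluronan-binding protein gene, at 2.90. For CCL20 these were CPAMD8 at 0.88, IL1B at 1.31 and the cytokine gene IL6 at 1.38. IL6 was also among the nearest to CCL3, at 0.64, between CHST15, a chondroitin sulfotransferase gene, at 0.42 and SERPING1, the C1 inhibitor gene, at 0.70. CCL5 had CNIH3, OLFM2 and LTBP3 at 0.33 to 0.34. CCL3L1 lay close to GIMAP4, a GTPase gene of lymphocytes, at 0.17. FRG2, which has near-identical copies, and H4C11, a histone H4 gene, followed at 0.70 and 0.77.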

How the data were processed

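RNA was extracted with Trizol from 3 spheroid samples, per the labels' protocols, which name a BGI kit for the libraries. The tools and genome build in the submitters' processing notes are Bowtie2 2.2.5, RSEM 1.2.12, DESeq2 1.4.5 and GRCh38.p13, with no role given for each. The deposited levels are FPKM to 2 decimals, per the file headers. The p-values and adjusted p-values are from DESeq2, per the file headers. The log2 fold changes are the authors' own, and their header names no tool. Positive fold changes mark genes higher in spheroids, since 356 of 358 genes with a fold change and no spheroid signal had a negative one. Fold changes were absent for 748 genes. The table also has 3 FPKM columns whose headers name monolayer cultures. They match no listed sample and were used in no step, so monolayer levels were not analysed here. Whether libraries kept strand is not given in sources used here.

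A gene was called where the adjusted p was under 0.05 and the log2 fold change was at least 1 in size. The members and the 15 gene lists were chosen with earlier results of these data known. Named genes are the members, 7 of their receptors, up to 4 called genes per list and direction with the largest fold change, the 2 most abundant per list, the 3 nearest by distance and the neighbours in RefSeq order; not all are printed, and 1 gene withheld for evaluation is not reported here. Outside this rule, PTPRC, TYROBP, CD14, CD3D, ITGAM, IL17A, IL17F, IFNG, COL2A1, CCL26, CCL1, ZFP36, DPP4 and the other called genes of the inducing cytokine list were chosen after their values were seen. The NF-kB subunit genes RELB, RELA, NFKB1, NFKB2 and REL and the immune markers CSF1R and FCER1G also fell outside the rule, with their values known. Depth is unknown. Code was tested on simulated data. Computation used Python 3.11.15, NumPy 2.4.6, pandas 2.3.3, Biopython 1.88 (global alignment) and matplotlib 3.10.9.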

Additional observations from a re-analysis of the deposited data

How the results depend on the processing

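The 6 members were called higher and none lower under all 5 alternative call rules. They were selected on that contrast, so this is no independent check. Each of the 36 alternative values of their levels (leaving out a replicate, median-ratio scaling, geometric means) moved by less than 1 SD. With 3 libraries, leaving out a replicate cannot move a mean by 1 SD, whatever the values. The scale factors were 0.995 to 1.006, so scaling could barely change a level. No conclusion on stability is drawn from these alternatives. No paired analysis was possible because the labelled samples form 1 group. Over all genes, no minimum fold change gave 4795 higher and 4518 lower, and a minimum of 2 gave 933 and 565. Over all lists together, a minimum of 2 gave 64 higher and 2 lower, no minimum gave 29 lower, and a spheroid mean of at least 1 FPKM gave 6 lower. For single lists, 118 of 150 alternative counts stayed within 1.5 times. An adjusted p under 0.01 gave lower counts of 1 for CXC, C and CX3C chemokines, 1 for chondrocyte markers. No minimum gave higher counts of 4 for mRNA decay genes, 9 for proteoglycans and lower counts of 6 for NF-kB genes, 1 for the inducing cytokine list, 2 for AP-1 and C/EBP factors, 4 for mRNA decay genes, 5 for proteoglycans, 2 for immune markers, 3 for epithelial markers, 4 for chondrocyte markers. A minimum of 2 gave higher counts of 0 for receptors of the members, 7 for NF-kB genes, 7 for the inducing cytokine list, 1 for interferon regulatory factors, 1 for mRNA decay genes, 8 for proteases, 1 for proteoglycans and lower counts of 0 for CXC, C and CX3C chemokines, 0 for NF-kB genes, 0 for AP-1 and C/EBP factors, 0 for proteoglycans, 1 for chondrocyte markers. The 1 FPKM level gave higher counts of 3 for other chemokine receptors, 0 for endothelial markers, 0 for epithelial markers, 1 for chondrocyte markers and lower counts of 1 for CXC, C and CX3C chemokines, 0 for immune markers, 0 for chondrocyte markers. Centring gave lower counts of 1 for mRNA decay genes. Of the 3 genes nearest to each member, all were kept in 14 of 24 alternatives and at least 1 in every one. The cause of these changes is the construction of each rule. Values near 0 are limited by their 2 decimals, and the split of reads between copies cannot be checked from FPKM.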
